A study of Homo sapiens with 6 samples.

Results

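The genes described here encode the machinery that carries a cell through G2 and mitosis: the mitotic cyclins with CDK1, the mitotic kinases, the spindle checkpoint, the kinetochore, the spindle motors and the cytokinesis proteins. A list of 39 such genes was taken by name. A gene was measured where the platform's annotation gave a probe set to that gene alone, which held for 38 of the 39, with 105 such probe sets among them, out of 18132 genes tested in the whole table. PTTG1, the securin gene, was the exception: its 1 probe set also carries the pseudogene PTTG3P, so PTTG1 has no value here. The cells were LX-2, a cell line made from human hepatic stellate cells, the liver cells that become matrix-forming myofibroblasts in fibrosis. All 6 samples were cultured without serum for 12 h. Then 3 samples received recombinant human BMP9 (the GDF2 protein, a ligand of the TGF-beta family) at 50 ng/ml for 24 h, and 3 control samples received 0 ng/ml for the same time. Each sample was hybridised to 1 Affymetrix 3′ expression array, so both groups share the serum starvation, the cell line and the time in culture. The labels call the samples of a group biological replicates without naming separate cultures, and p-values therefore measure the spread between these samples, which may be technical.

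No gene of G2 and mitosis was called higher or lower after BMP9. Of the 38 measured genes 0 passed limma's adjusted p threshold of 0.05 over all genes, against 0.684% of all genes (124 of 18132), and the smallest adjusted p among the 38 was 0.342. By direction, 0 of the 38 were called higher, against 0.232% of all genes, and 0 lower, against 0.452%. At an unadjusted p under 0.05, limma held 2 of the 38, TPX2 and KIF20A, against 12.9% of all genes. The log2 differences, BMP9 minus control, ran from -0.17 for KIF23 to 0.21 for TPX2, with 20 above 0 and 18 below, and 54.7% of all genes were above 0. Their median was 0.012, beside 0.014 over all genes. The treatment was visible on the same arrays in other genes: SMAD6, which encodes an inhibitory SMAD, stood at 8.99 with BMP9 and 5.97 in control (mean log2 values, limma adjusted p = 3.97e-07), and ID3 and ID2, inhibitors of basic helix-loop-helix factors, also rose (differences of 1.63 and 1.21, limma adjusted p = 8.65e-05 and 0.0492). For ID2 control replicate 3 was low: control values were 5.05, 4.83 and 3.92, against 5.80, 5.75 and 5.88 with BMP9. SMAD6, ID3 and ID2 were 3 of the 5 BMP response genes looked at. The groups overlapped in the other two, ID1 and SMAD7, whose differences of 0.14 and 0.21 did not pass (limma adjusted p = 0.582 and 0.390). In bulk RNA, fewer or more cycling cells and a different amount of transcript per cell cannot be told apart.

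In a dividing cell, cyclin A2 and then the B cyclins activate CDK1, whose activity, together with that of PLK1 and the Aurora kinases, drives chromosome condensation and spindle assembly. The spindle checkpoint holds the anaphase-promoting complex in check until every kinetochore is attached, and CDC20 then directs that complex to securin and cyclin B. The messenger RNAs of these genes are made mainly in G2 under the transcription factor FOXM1 and the MuvB complex, and are low in resting cells. Stellate cells are known to be resting in healthy liver and to proliferate when activated, while a cell line such as LX-2 divides in serum.

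What these genes share in sequence is visible in their promoters, taken from RefSeq for build GRCh38.p14 as the 250 bases before and 50 after each annotated start. The motif searched first was TTTGAA, the core of the cell cycle genes homology region through which MuvB acts, and the other was CCAAT, the NF-Y box, both on either strand and neither able to contain the other. Of the 39 names, 32 matched at least 1 promoter, 42 promoters in all. AURKA, BIRC5, BUB3, FOXM1, TPX2, TTK and UBE2C have no entry. Windows of the same gene overlap in AURKB, CDC25C, CDK1 and PTTG1, among others, so the 42 promoters are not independent. TTTGAA was present in 25 of the 42, or 59.5%, beside 15.2% of all 35116 promoters. It began 50 to 1 bases before the start in 13 of the 42 (31%), beside 2.56% of all promoters. CCAAT was present in 31 of the 42 (73.8%), beside 34.6%, and began 100 to 51 bases before the start in 54.8%, beside 12.9%. These matches describe letters in a window and no binding. The related forms TTCGAA and TTTAAA, both their own reverse complement, were found in 7.14% and 33.3% of the 42 promoters, beside 1.45% and 12.2% of all. The 4 promoters below show this arrangement, with capitals marking TTTGAA and CCAAT or their reverse complements TTCAAA and ATTGG. They are CCNB2 and PLK1, each with CCAAT followed by TTTGAA, KIF11, with both motifs on the other strand, and CCNB1. CCNB1 has CCAAT boxes but no TTTGAA in the window, and its TTTAAA, not capitalised, began 30 bases before the start.
CCNB2, chr15:59104896-59105195, + strand: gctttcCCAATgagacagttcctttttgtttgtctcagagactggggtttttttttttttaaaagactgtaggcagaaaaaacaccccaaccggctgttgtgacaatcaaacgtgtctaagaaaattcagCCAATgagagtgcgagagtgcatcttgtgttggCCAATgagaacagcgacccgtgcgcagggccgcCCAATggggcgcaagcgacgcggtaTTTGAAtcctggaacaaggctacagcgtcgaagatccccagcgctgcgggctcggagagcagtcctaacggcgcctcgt
PLK1, chr16:23678639-23678938, + strand: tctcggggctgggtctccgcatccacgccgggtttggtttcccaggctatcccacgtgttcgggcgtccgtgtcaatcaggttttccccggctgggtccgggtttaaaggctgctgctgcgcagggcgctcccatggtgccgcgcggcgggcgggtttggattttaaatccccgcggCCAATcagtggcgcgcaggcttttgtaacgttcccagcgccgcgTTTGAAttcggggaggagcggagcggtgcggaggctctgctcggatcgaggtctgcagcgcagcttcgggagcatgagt
KIF11, chr10:92592880-92593179, + strand: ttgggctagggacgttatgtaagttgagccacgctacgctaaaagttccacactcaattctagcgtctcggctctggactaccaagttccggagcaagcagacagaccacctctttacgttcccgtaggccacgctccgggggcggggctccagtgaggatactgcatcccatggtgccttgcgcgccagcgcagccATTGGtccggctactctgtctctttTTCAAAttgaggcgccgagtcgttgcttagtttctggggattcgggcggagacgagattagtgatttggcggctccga
CCNB1, chr5:69166900-69167199, + strand: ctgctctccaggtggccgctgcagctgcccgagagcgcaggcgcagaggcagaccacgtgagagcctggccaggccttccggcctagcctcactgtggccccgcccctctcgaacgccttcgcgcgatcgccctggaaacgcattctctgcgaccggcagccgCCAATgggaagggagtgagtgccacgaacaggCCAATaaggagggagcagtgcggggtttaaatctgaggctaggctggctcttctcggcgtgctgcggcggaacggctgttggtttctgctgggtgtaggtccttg

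The last match to TTTGAA began 29 bases before the start in CCNB2 and in PLK1 and 28 before it in KIF11. The 22 measured genes with TTTGAA in any of their promoters had a median difference of 0.0040, with 11 above 0. The 9 without it had a median of -0.069, with 4 above 0. Some of the 9 carry a related form, such as CCNB1 and KIF20A, where TTTAAA began 30 and 41 bases before the start. None of the 31 was called. The values below are RMA log2 values, which compare arrays within a probe set and do not rank genes.

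The cyclins, CDK1 and its activating phosphatases lay on both sides of 0, with 3 of 6 above it. CCNB1, the cyclin that forms the core mitotic kinase with CDK1, had log2 values of 3.02, 3.05 and 3.04 on the BMP9 arrays, against 3.10, 3.16 and 3.17 on the control arrays. All BMP9 values were below all control values, and the difference was -0.11 (SE 0.070, limma adjusted p = 0.544). CCNB2, its partly redundant relative, was at 4.07, 4.09 and 4.27 with BMP9, against 4.10, 3.98 and 3.92 in control. Here BMP9 replicate 3 was the highest array and the groups overlapped (difference 0.14, limma adjusted p = 0.524). The 2 B cyclins thus had differences of opposite sign, and neither passed. CDK1 itself was at 2.31, 2.60 and 2.31 with BMP9, against 2.44, 2.57 and 2.66 in control. BMP9 replicate 2 stood with the controls (difference -0.15, limma adjusted p = 0.575). CCNA2, the cyclin of S phase and early mitosis, was at 4.19, 4.002 and 4.14 with BMP9 and at 4.36, 4.21 and 3.97 in control, with its highest and lowest values both in control. CDC25B and CDC25C, the phosphatases that remove the inhibitory phosphates from CDK1, differed by 0.10 and 0.097, with limma adjusted p of 0.615 and 0.725.

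Among the entry kinases and FOXM1, 2 of 4 were above 0. AURKA, the centrosomal Aurora kinase, was at 4.40, 4.30 and 4.36 with BMP9, against 4.17, 4.23 and 4.28 in control. The groups did not overlap, although BMP9 replicate 2 and control replicate 3 were close, and the difference of 0.13 (SE 0.073) did not pass (limma adjusted p = 0.493). PLK1, the kinase of centrosome maturation and mitotic entry, was at 5.94, 5.90 and 5.996 with BMP9, against 5.89, 5.85 and 6.14 in control. Its highest and lowest values were both in control, and the difference was -0.017 (limma adjusted p = 0.962). FOXM1, which drives transcription of many of these genes, was at 5.76, 5.19 and 5.36 with BMP9, against 5.36, 5.49 and 5.09 in control. It had the largest spread of the 38, with a pooled SD of 0.25. The difference of 0.13 lay inside that spread (95% interval -0.20 to 0.45). The dimmer probe sets of FOXM1 differed by -0.23 and -0.11, without passing. NEK2, a centrosome-splitting kinase, differed by -0.069.

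The spindle checkpoint genes had 2 of 5 above 0 and none whose groups were apart. BUB1B, which encodes the checkpoint protein BubR1, was at 2.74, 2.77 and 2.90 with BMP9, against 2.76, 2.98 and 2.90 in control. The values of TTK, the kinase at the head of the checkpoint, were 2.48, 2.51 and 2.52 with BMP9 and 2.44, 2.54 and 2.50 in control. This was the narrowest range of all 38 genes, at 0.0999 over 6 arrays. BUB1, BUB3 and MAD2L1 differed by 0.097, -0.11 and -0.057.

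At the kinetochore and in the chromosome passenger complex 4 of 7 were above 0. CENPE, the kinesin that brings chromosomes to the spindle equator, was at 3.74, 3.64 and 3.72 with BMP9, against 3.83, 3.75 and 3.96 in control. The groups did not overlap, although BMP9 replicate 1 and control replicate 2 were close, and the difference was -0.15 (limma adjusted p = 0.478). CENPF, a large kinetochore protein that builds up in G2, was at 4.78, 4.73 and 4.69 with BMP9, against 4.62, 4.67 and 4.75 in control. AURKB, the kinase of the passenger complex, was at 5.37, 5.27 and 5.32 with BMP9, against 5.22, 5.31 and 5.36 in control. Both genes had overlapping groups. BIRC5 (survivin), a partner of Aurora B in that complex, was at 6.57, 6.52 and 6.48 with BMP9, against 6.34, 6.65 and 6.63 in control. The differences of AURKB and BIRC5 were 0.023 and -0.015, with 95% intervals of -0.14 to 0.19 and -0.22 to 0.19. CENPA, the centromeric histone, differed by -0.13, and NDC80 and NUF2, which together bind microtubule ends, by 0.058 and 0.034.

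**Figure D1:**
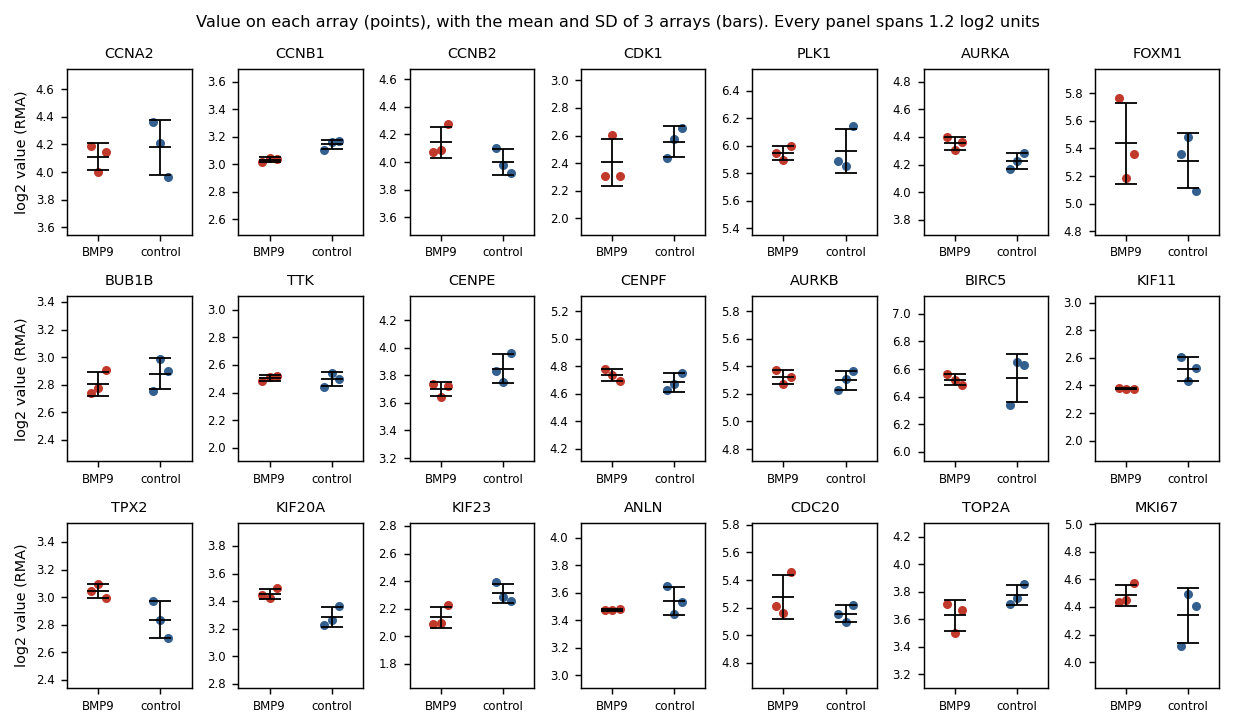
RMA log2 value (vertical axis) of 21 G2 and mitosis genes on each array, with the 3 BMP9 arrays (red) left of the 3 control arrays (blue) and black bars for the mean and SD. TPX2, KIF20A and AURKA had all BMP9 points above the control points, CCNB1, CENPE, KIF11 and KIF23 had them all below, and the other panels overlapped.

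The smallest p-values fell among the spindle and cytokinesis genes, in both directions. TPX2, the spindle assembly factor that activates Aurora A, was at 3.05, 3.10 and 2.99 with BMP9, against 2.97, 2.84 and 2.70 in control. The groups were apart, and the difference of 0.21 (SE 0.086) had a limma adjusted p of 0.342. The probe sets used for 9 of the 38 genes carry a suffix for probes shared with other transcripts (TPX2, DLGAP5, KIF4A, CDK1, CDC20, BUB3, TTK, NEK2 and BIRC5), and TPX2 and TTK have no other probe set. KIF11, the motor that pushes the spindle poles apart, was at 2.38 on all 3 BMP9 arrays, against 2.60, 2.43 and 2.53 in control. Its difference was -0.14 (limma adjusted p = 0.460). Of the other spindle genes KIF2C, a microtubule depolymerase, differed by -0.075, HMMR by 0.074, NUSAP1 by -0.016 and DLGAP5 by -0.0057. KIF20A and KIF23 are both kinesins of the central spindle, the structure between the separating chromosomes. KIF20A was at 3.44, 3.42 and 3.50 with BMP9, against 3.23, 3.26 and 3.37 in control, a difference of 0.17 (limma adjusted p = 0.376). KIF23 was at 2.09, 2.10 and 2.22 with BMP9, against 2.39, 2.28 and 2.26 in control, a difference of -0.17 (limma adjusted p = 0.390). The groups were apart for both genes. A dimmer probe set of KIF23 differed by 0.0995, with the BMP9 arrays above the control arrays, and averaging the probe sets of KIF23 gave -0.036. ANLN, the scaffold of the contractile ring, was at 3.48, 3.47 and 3.48 with BMP9, against 3.65, 3.45 and 3.54 in control. PRC1, which bundles central spindle microtubules, differed by 0.026, ECT2, which activates RhoA at the cleavage site, by 0.034 and KIF4A by 0.014. KIF4A has a near-identical copy, KIF4B, and its chosen probe set carries the suffix for shared probes, so its value is uncertain.

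CDC20 and UBE2C, which act with the anaphase-promoting complex, both had differences of 0.12 without passing. CDC20 was at 5.21, 5.16 and 5.46 with BMP9, against 5.15, 5.10 and 5.22 in control (limma adjusted p = 0.621). BMP9 replicate 3 gave the highest value of CDC20, as it did of CCNB2. TOP2A, the topoisomerase that untangles chromosomes, was at 3.71, 3.50 and 3.67 with BMP9 and at 3.71, 3.76 and 3.85 in control (difference -0.15, limma adjusted p = 0.494). MKI67, which encodes the proliferation marker Ki-67, was at 4.43, 4.45 and 4.57 with BMP9, against 4.11, 4.49 and 4.41 in control. Control replicate 1 alone was low, and the difference was 0.14 (95% interval -0.085 to 0.37, limma adjusted p = 0.600). Without control replicate 1 it was 0.031. These 2 genes, both widely used as measures of proliferation, had differences of opposite sign.

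**Figure D2:**
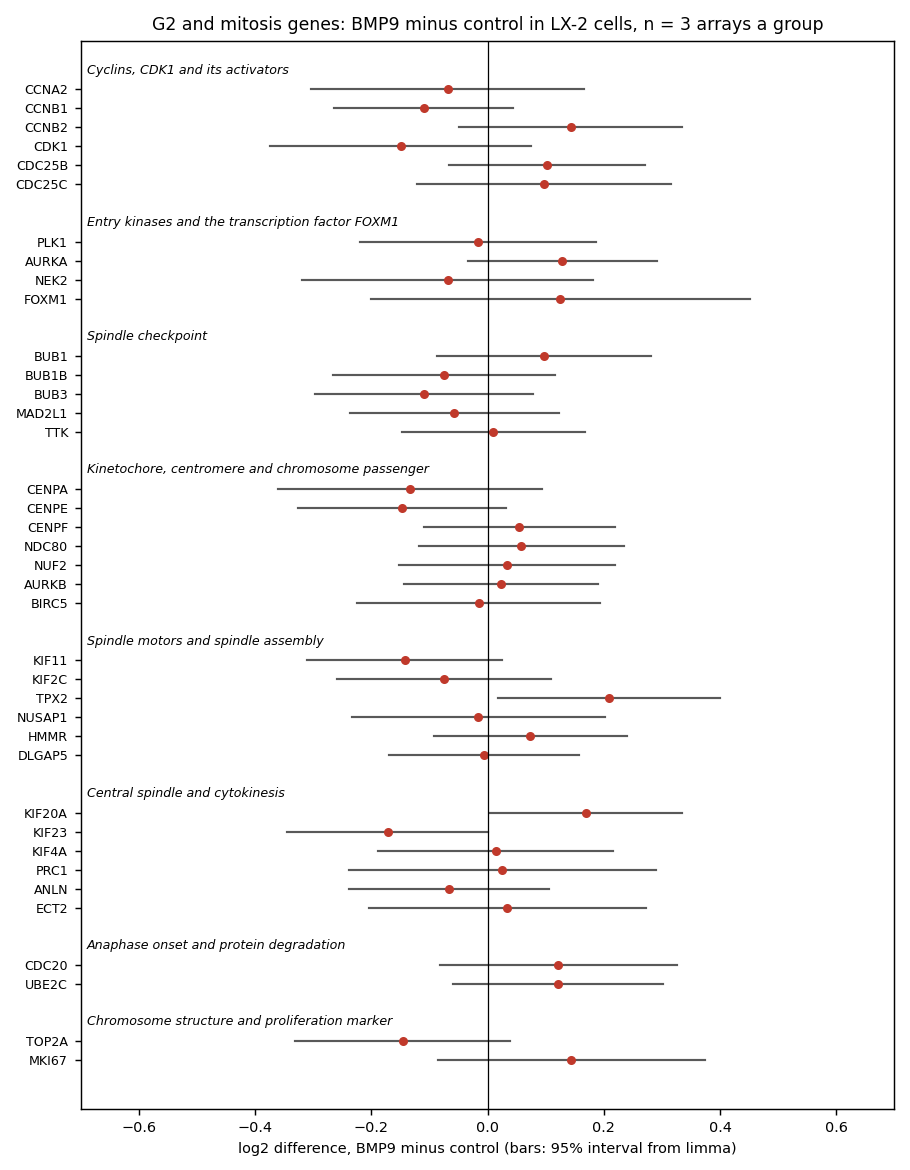
Log2 difference, BMP9 minus control (horizontal axis, red points), with limma's 95% interval (bars) for the 38 measured genes, grouped by role. Only the intervals of TPX2 and KIF20A left out 0, before any adjustment, and no interval reached 0.5 in either direction.

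Groups without overlap were as common in this set as in the whole table. The BMP9 and control arrays were fully apart in 7 of the 38 genes (18.4%), beside 18.8% of all genes. BMP9 was higher in 3 of them (TPX2, KIF20A and AURKA), beside 10.3% of all genes, and lower in 4 (KIF23, KIF11, CENPE and CCNB1), beside 8.49%. In 22 of the 38 the difference was smaller than the gene's own pooled SD, whose median was 0.094. The median deviation of the 38 genes from their means over all arrays lay between -0.0063 and 0.0058 on the BMP9 arrays and between -0.044 and 0.030 on the control arrays. The lowest bound of the 95% intervals was -0.37 for CDK1 and the highest 0.45 for FOXM1, or 1.30-fold lower and 1.37-fold higher. These intervals are not adjusted for the number of genes. All 38 intervals lay between -0.5 and 0.5, as did 94.1% of those of all genes.

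Those bounds apply to array values, and many of the probe sets were dim. The table holds no detection calls. Mean log2 values over the 6 arrays ran from 1.87 for NUF2 to 6.93 for UBE2C, and 9 of the 38 reached 5 (23.7%, beside 37.2% of all genes). The array's own background probe sets have sequences that match no transcript. They averaged 1.85 at 10 G or C bases per probe, 2.86 at 15, 5.23 at 20, 7.35 at 23 and 10.0 at 25. All 38 genes lay at or under the value at 23. The base composition of the probes of these genes is not used here, so none of the 38 is known to lie above background, and the lack of a call does not show that an RNA was unchanged. Among the 9 brighter genes 6 differences were above 0, with a median of 0.097, beside 54.8% and a median of 0.015 among all genes with a mean log2 value of at least 5.

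**Figure D3:**
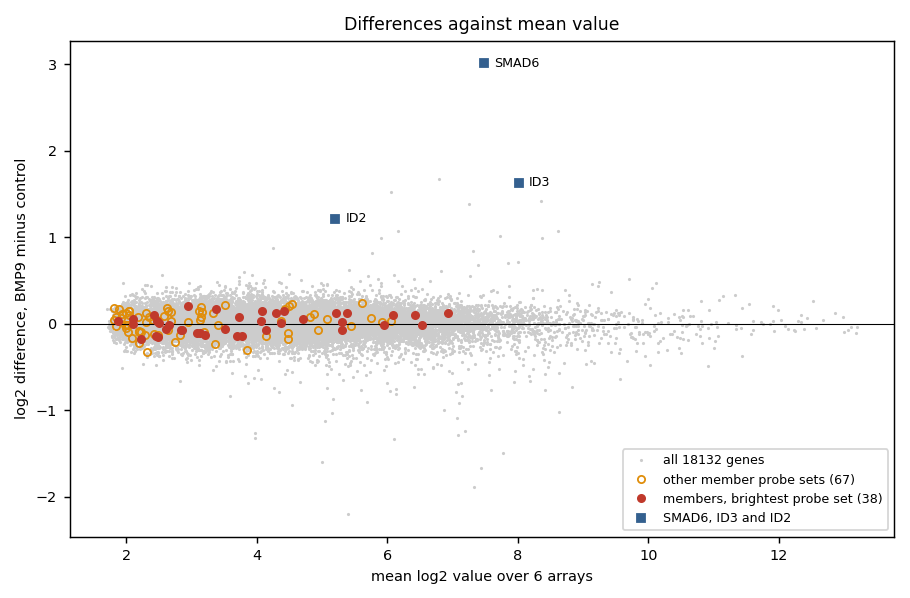
Log2 difference, BMP9 minus control (vertical axis), against the mean log2 value over 6 arrays (horizontal axis) for all 18132 genes (grey), the 38 genes of G2 and mitosis (red), their 67 other probe sets (open orange) and SMAD6, ID3 and ID2 (blue). The red and orange points stay between -0.33 and 0.24, while SMAD6 lies at 3.01.

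The other probe sets of these genes gave the same count of calls. When every single-gene probe set was tested on its own, 0 of the 105 passed limma's adjusted p (smallest 0.151), against 0.436% of all probe sets, and 7 had an unadjusted p under 0.05, against 11.4%. In 18 of the 26 genes with several probe sets the differences had both signs. The largest difference was that of another CDC25C probe set, at 2.15 ± 0.020 with BMP9 and 2.48 ± 0.11 in control (SD, n = 3 each), a value of -0.33 where the chosen CDC25C probe set gave 0.097. UBE2C had another probe set at 3.71 ± 0.17 with BMP9 and 4.01 ± 0.11 in control (SD, n = 3 each), 0.30 lower against 0.12 higher in the chosen one. Its remaining probe sets differed by -0.18 and 0.015. Other probe sets of KIF2C and BUB3 with an unadjusted limma p under 0.05 differed by 0.22 and -0.22, where the chosen ones gave -0.075 and -0.11. In 5 genes all differences were positive and in 3 all were negative. MKI67 was among the 5, with 6 probe sets at 0.021 to 0.15, none of which passed. BIRC5 had the most probe sets of any gene here, 12, with differences from -0.14 to 0.24.

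The direction of the whole set depends on what the arrays are scaled to. The added control RNAs gave lower values on the BMP9 arrays. The hybridisation controls averaged 9.87 to 10.0 there, against 10.1 to 10.2 on the control arrays. The poly-A controls averaged 5.39 to 5.83 with BMP9, against 6.09 to 6.22 in control. Scaling to the hybridisation controls moved the median of all genes to 0.23 and called 26.7% of all genes higher. It put all 38 genes of G2 and mitosis above 0, with a median of 0.22, and called 10 of them (26.3%). Scaling to the poly-A controls moved the median of all genes to 0.55 and called 93.2% of all genes higher, among them all 38, whose median became 0.54. Both scalings add a constant to every gene's difference. The controls also differed between arrays of a group, so the spread and the p-values can change as well. As a check meant for RNA integrity, the 3′ and 5′ probe sets of ACTB and GAPDH were compared. In both genes the 5′ probe set was the brighter on every array, so RNA integrity is not read from these differences. The 3′ probe set minus the 5′ probe set of ACTB was -4.45 to -4.32 with BMP9 and -4.28 to -4.08 in control, which do not overlap. For GAPDH it was -1.55 to -1.34 with BMP9 and -1.39 to -1.19 in control, which overlap. The part of RNA integrity in these values was not tested.

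Related genes outside the set, in 7 lists, had 0 calls by limma in every list. Of 30 further mitotic kinases and spindle factors 15 were above 0 and 1 had an unadjusted p under 0.05, the kinesin gene KIF14 (difference 0.27, adjusted p = 0.328). Of 33 further kinetochore and centromere genes 15 were above 0 and 2 had an unadjusted p under 0.05, the checkpoint gene MAD1L1 (-0.23) and the kinetochore gene ZWINT (-0.27). Among 19 genes of condensin, cohesin and separase, which shape and release the chromosomes, 3 (beside 12.9% of all genes) had an unadjusted p under 0.05, all with negative differences: the cohesin release factor WAPL (-0.28, limma adjusted p = 0.146), the cohesin subunit STAG2 (-0.26) and the condensin subunit NCAPG (-0.29). The groups did not overlap in 6 of the 19, these 3 among them, beside 18.8% of all genes. All 3 differences turn positive with poly-A scaling, which adds 0.53 to each. The list's median was -0.0031. Of 17 anaphase-promoting complex genes 9 were above 0, and the subunit gene ANAPC7 had the smallest p (-0.23, adjusted p = 0.213). Upstream, 14 of 19 DREAM, MuvB and E2F regulators were above 0, beside 54.7% of all genes, with a median of 0.062. An unadjusted p under 0.05 was seen for the histone-binding MuvB subunit RBBP4 alone (-0.20, limma adjusted p = 0.319). Of the 12 G1 cyclins and their kinases 5 were above 0, with a median of -0.035, and 4 had an unadjusted p under 0.05, beside 12.9% of all genes. The groups did not overlap in 5 of the 12, beside 18.8% of all genes. CCND2, a D-type cyclin gene, had the smallest p there (0.33, adjusted p = 0.139), followed by the cyclin gene CCNH (-0.23) and MNAT1 (-0.24), whose products belong to the CDK-activating kinase. The S phase genes had 28 of 35 above 0, beside 54.7% of all genes, and a median of 0.079, the highest of these lists. PCNA, the sliding clamp of replication, differed by 0.30 (limma adjusted p = 0.121). Its means of 2.36 with BMP9 and 2.06 in control are not known to lie above background. The next smallest p-values were those of SLBP (-0.25, limma adjusted p = 0.262) and MCM3 (0.22, limma adjusted p = 0.320). The difference between the S phase and mitosis lists was not tested.

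**Figure D4:**
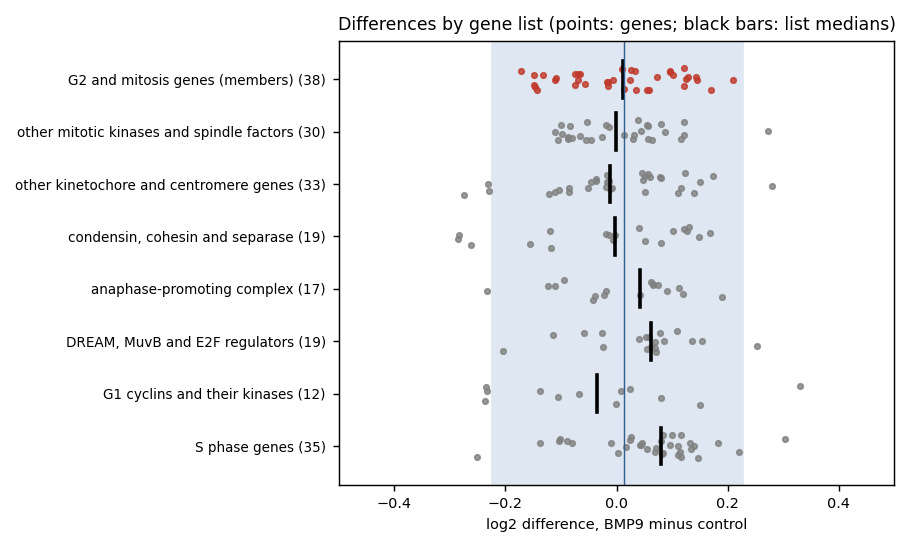
Log2 difference, BMP9 minus control (horizontal axis), of each gene (points) in the G2 and mitosis set (red) and in 7 related lists (grey), with list medians (black bars), the median of all genes (blue line) and the range from the 5th to the 95th percentile of all genes (shaded, -0.22 to 0.23). All red points lie inside the shaded range.

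Markers of the labelled cell type were checked on the same arrays. Of 8 stellate or mesenchymal markers 0 passed limma's threshold. The collagen gene COL1A1 averaged 9.79 with BMP9 and 9.73 in control, under the background mean of 10.0 at 25 G or C bases. The intermediate filament gene VIM averaged 11.25 with BMP9 and 11.62 in control (limma adjusted p = 0.0786). The smooth muscle actin gene ACTA2 averaged 4.04 with BMP9 and 3.90 in control. Neither COL1A1 nor ACTA2 is known to lie above background. Of 17 markers of other liver cell types (hepatocyte, endothelial, immune and bile duct) 0 passed, and their brightest probe sets are not known to lie above background. Pearson's r between arrays, across genes, was 0.993 to 0.995 within groups and 0.991 to 0.993 between them.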

How the data were processed

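The authors deposited log2 expression values per probe set, made with RMA per the submitters' processing notes; the software behind it is not given in the sources used here, and the base of the logarithm rests on what RMA normally writes and on the range seen. RMA includes quantile normalisation, which removes most of a shift shared by all genes, and compresses differences of dim probe sets. Of 49395 probe sets 44988 carried 1 gene symbol, 1832 several, 2473 none and 102 were array controls. Each gene was represented by the brightest probe set that it alone carries (18132 genes, 11734 with more than 1), named by the platform's annotation; all 38 measured symbols are current in the gene table of GRCh38.p14. limma 3.58.1 in R 4.3.3 (lmFit, eBayes, constant prior, no block) compared 3 BMP9 with 3 control arrays, Benjamini-Hochberg adjusted over all genes at 0.05, and was tested on simulated data. With 4 residual and 6.13 prior degrees of freedom, the number of arrays limits the precision. Values on every array were given for 17 genes fixed by name and the 8 with the smallest p, 21 in all, and of each related list up to 3 genes with the smallest p were named. The members, lists and alternatives were chosen with earlier results of these data known. For BMP9 and control arrays with the same replicate number the r of deviations from the group means was -0.021 to 0.046. For arrays with other numbers it was -0.073 to 0.063. With 3 arrays a group this cannot tell whether the numbers pair arrays, and the labels state no pairing. Figures were drawn with matplotlib 3.10.9.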

Additional observations from a re-analysis of the deposited data

How the results depend on the processing

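The count of G2 and mitosis genes called stayed at 0 in each direction under 9 of the 11 alternatives that used all arrays and could be run for them, and under each array left out. The exceptions were scaling to the hybridisation controls, with 10 higher, and to the poly-A controls, with 38 higher. Their median difference was 0.22 and 0.54 there and 0.097 among genes with a mean log2 value of at least 5; with a minimum of 7 none of them was left, so no value exists. With an array left out it lay between -0.0090 and 0.023. Over all genes, the 42 higher and 82 lower calls became 4843 higher (hybridisation), 16893 and 19 (poly-A), 102 and 165 (minimum 5), 97 and 150 (minimum 7), 103 and 182 (intensity trend with a robust prior), and 0 and 0 with Welch's test, where 1518 genes had an unadjusted p under 0.05, 4 of them among the 38. Testing every probe set gave 136 lower, out of 44988 probe sets rather than 18132 genes. The share called in either direction was 0.436% of probe sets, against 0.684% of genes. The replicate block gave 27 higher and left the genes of G2 and mitosis at 0. With an array left out, 17 to 24 were higher and 37 to 54 lower. The cause of these changes was not tested. By design, both scalings add a constant to every gene's difference. Minima test fewer genes, testing every probe set makes more tests, and left-out arrays use fewer samples.

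Signs that turned were those of small differences that had not passed. Scaling to the hybridisation controls gave 0.15 for ANLN, 0.20 for BIRC5, 0.14 for BUB1B, 0.14 for CCNA2, 0.10 for CCNB1, 0.062 for CDK1, 0.064 for CENPE, 0.069 for KIF11, 0.039 for KIF23, 0.19 for PLK1 and 0.065 for TOP2A. Scaling to the poly-A controls gave 0.47 for ANLN, 0.52 for BIRC5, 0.46 for BUB1B, 0.46 for CCNA2 and 0.42 for CCNB1. It gave 0.38 for CDK1, 0.38 for CENPE, 0.39 for KIF11, 0.36 for KIF23, 0.52 for PLK1 and 0.39 for TOP2A. Both scalings add a constant to every gene's difference. Averaging probe sets gave 0.049 for ANLN, 0.028 for BIRC5, -0.022 for CENPF, -0.073 for FOXM1 and 0.061 for PLK1. Leaving out probe sets with shared probes left 36 of the 38 genes, without TPX2 and TTK, and gave 0.065 for BIRC5 and 0.14 for CDK1, and centring on array medians gave -0.0022 for TTK. With an array left out, the difference ranged from -0.013 to 0.056 for AURKB, -0.12 to 0.041 for BIRC5, -0.18 to 0.023 for CCNA2, -0.038 to 0.25 for FOXM1, -0.070 to 0.075 for PLK1 and -0.016 to 0.034 for TTK.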
